A study of Mus musculus with 26 samples.

Results

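Transcript levels of the 9 genes that encode the constant parts of the T cell receptor (TCR), its CD3 signalling chains and the pre-TCR alpha chain were followed through CD8 T cell development in 3 TCR transgenic mouse lines. The genes were chosen by symbol (Trac, Trbc1, Trbc2, Trdc, Cd3d, Cd3e, Cd3g, Cd247 and Ptcra). All 9 were among the 46517 genes of the table and all 9 passed the filter on low values that 16372 genes passed. The lines carry rearranged alpha and beta chains of MHC class I-restricted receptors with low (TG6), intermediate (F5) and high (OT-1) self-reactivity. TG6 animals were TG6tg H2b/d on a C57/BL6 x B6.C-H2d/bByJ cross and kept both Rag genes, whereas F5 animals were F5tg Rag1KO and OT-1 animals OT-1tg Rag2KO, both on C57/BL6. Line, Rag status, strain and MHC type therefore cannot be told apart in a comparison with TG6, nor line and the knocked-out Rag gene between OT-1 and F5. The study's methods give an age range for the mice of most experiments together and no age for each library. The promoters that drive the transgenes are not given in the sources used here, and whether reads from a transgene reach a constant gene's row was not tested. Thymocytes were sorted into 3 stages. Double-positive cells with CXCR4 and without CCR7 formed the early positive selection stage, double-positive cells with CCR7 and without CXCR4 the late stage, and cells positive for CD8 alone, with CCR7 and without CXCR4, the mature CD8SP stage. Each of the 9 groups held 3 libraries from biological replicates, except TG6 late with 2, giving 26 libraries.

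The alpha-beta TCR is a pair of chains, each with a variable part that meets the peptide and MHC and a constant part that anchors the chain in the membrane. The pair itself has almost no cytoplasmic tail and signals through the CD3 gamma, delta, epsilon and zeta chains (Cd3g, Cd3d, Cd3e and Cd247). Before an alpha chain exists, the invariant pre-TCR alpha chain (Ptcra) pairs with the new beta chain in its place. The beta chain can use either of 2 constant genes, Trbc1 or Trbc2, and the delta constant gene Trdc, which serves gamma-delta T cells, lies within the alpha locus.

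The beta constant genes are close copies, which bears on how reads were shared between them. On the mouse build GRCm38, GENCODE places Trbc1 at chr6:41538218-41539881 and Trbc2 at chr6:41546730-41548352, both on the plus strand. Over the 518 coding bases the copies differed at 23 positions, an identity of 95.6%. Only 1 of these positions, C260A (Trbc1 base first, counted from 1 at the start of the constant coding sequence), lay in the 375 bases of exon 1, and the other 22 lay in exons 2 to 4. The coding bases 376 to 518 are shown because they hold nearly all of what tells the genes apart, with the differing bases in capitals.
Trbc1: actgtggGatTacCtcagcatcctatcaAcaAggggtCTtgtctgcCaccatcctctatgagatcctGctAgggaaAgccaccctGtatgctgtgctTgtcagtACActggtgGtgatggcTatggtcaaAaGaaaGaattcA
Trbc2: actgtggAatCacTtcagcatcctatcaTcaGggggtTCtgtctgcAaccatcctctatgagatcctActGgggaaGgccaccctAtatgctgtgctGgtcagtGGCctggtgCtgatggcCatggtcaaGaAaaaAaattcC

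Of all 50-base windows, 41.1% of those in the Trbc1 transcript and 44.0% of those in the Trbc2 transcript were also found in the other gene. A read of that length from such a window cannot be assigned to 1 gene, so the levels of Trbc1 and Trbc2 rest on how the authors' software divided the shared reads. Their sum does not depend on that division.

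The normalized values of a library summed to between 16134786 and 18944173, and no 2 libraries were identical. In the sort check, Cd4 ranged from 7980 to 22731 in early libraries and from 62.8 to 461 in mature ones, and Ccr7 from 112 to 863 in early and from 2698 to 10976 in late libraries. Cxcr4 transcripts separated the stages less, at 1425 to 5527 in early, 350.1 to 2561 in late and 1219 to 4031 in mature libraries, and mature libraries overlapped with early ones in OT-1 (1945, 1219 and 3316 against 1742, 1425 and 2898) and in F5 (1462, 2528 and 4031 against 2638, 3691 and 4185). Marker lists of other cells gave summed levels of at most 54.7 for NK cells and of 57.3 to 299 for macrophages and dendritic cells, 275 to 1560 for thymic epithelium, 33.9 to 1280 for erythroid cells and 2790 to 10400 for B cells. Granulocyte markers (5 of 5) and the NK cell gene Ncr1 stayed under 10 in every library, as did the epithelial genes Krt5, Krt8 and Foxn1. The knocked-out genes do not test the labels, because a row covers the whole gene and the deleted part is not given in the sources used here. Rag1 was 10835 to 16266 in early F5 libraries (Rag1KO) against 51114 to 58364 in TG6, and Rag2 was 176 to 291 in early OT-1 libraries (Rag2KO) against 2074 to 2529 in TG6. TG6 mature replicate 3 stood apart from its group in several genes named here (Rag1 5265 against 696 and 620, Mki67 23175 against 6220 and 7129, Hes1 1848 against 95.7 and 113), so values without it are also given below.

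**Figure D1:**
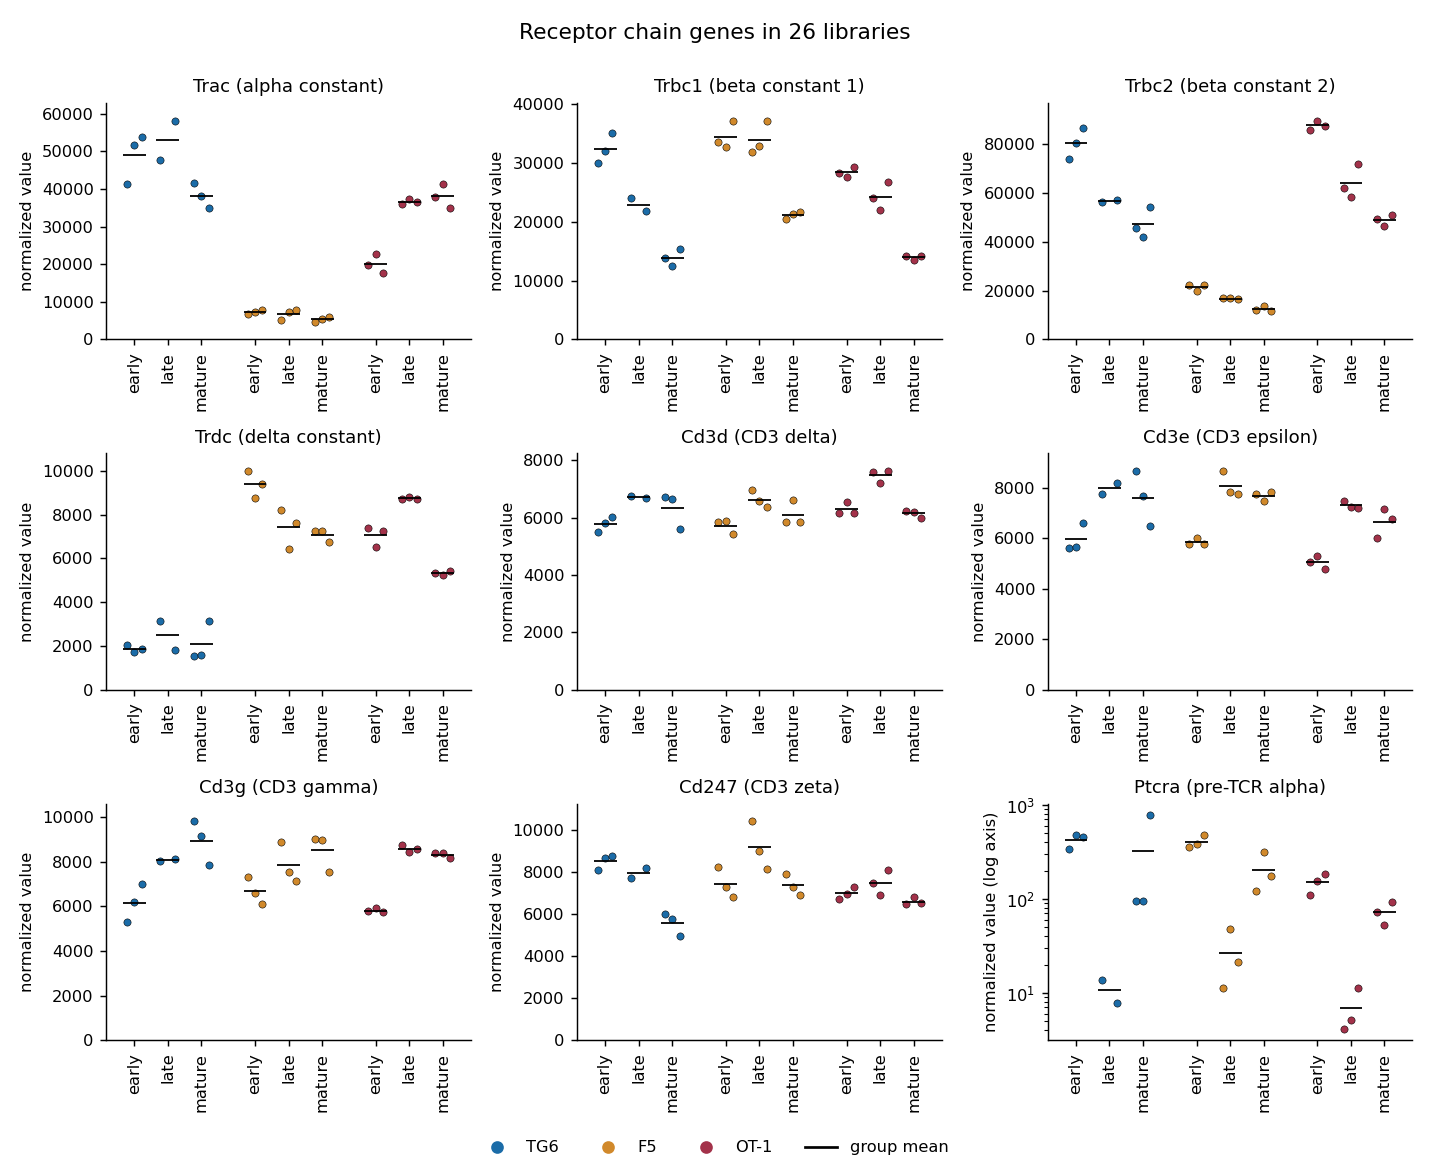
Normalized value (vertical axis; log axis for Ptcra only) of the 9 genes in each of the 26 libraries, grouped by line (colour) and stage (horizontal axis); points are libraries and bars are group means. Trac and Trbc2 are low in every F5 library, Trdc is low in every TG6 library, Ptcra is lowest at the late stage of each line, and the CD3 genes span a narrow range.

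Differences are given on the scale of log2(normalized value + 1) with their standard error (SE), from limma fitted over all genes, and a gene is called at a Benjamini-Hochberg adjusted p under 0.05. Between OT-1 and TG6, 3 of the 9 genes were called at early positive selection (Trdc higher, Trac and Cd247 lower), a share near the 27.8% of all genes that were called. With libraries scaled to equal totals, or by quantile normalization, this split of 1 higher and 2 lower became 1 and 5. At the late stage 2 were called (Trdc higher, Trac lower; 15.5% of all genes), and at the mature stage 1 (Trdc; 9.74%), and quantile normalization added Cd3e to the lower genes at both. Between OT-1 and F5, 3 were called at the early stage (12.7% of all genes), 5 at the late stage (24% of all genes) and 3 at the mature stage (23.3%). With equal totals or quantile normalization the OT-1 against F5 split changed from 2 higher and 1 lower to 2 and 3 at the early stage and to 2 and 4 at the mature stage. Between F5 and TG6, 3 were called at the early stage (6.46% of all genes), 4 at the late stage (4.97%) and 5 at the mature stage (6.64%). The genes called at all 3 stages of a comparison were Trac, Trbc1 and Trbc2 between OT-1 and F5, Trac, Trbc2 and Trdc between F5 and TG6, and Trdc between OT-1 and TG6.

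The alpha constant gene Trac (chr14:54220521-54224206, plus strand) had the largest early difference of the 9 genes, that of F5 from TG6. Between early OT-1 and TG6 Trdc differed more (1.93 against -1.29), and between early OT-1 and F5 Trbc2 did (2.04 against 1.46). At early positive selection TG6 libraries held 41397, 51783 and 53883, OT-1 libraries 19785, 22614 and 17664, and F5 libraries 6668, 7228 and 7856. The 3 lines did not overlap, with TG6 highest and F5 lowest. F5 was lower than TG6 by 2.75 ± 0.14 (SE; log2 difference -2.75, 6.73-fold, adjusted p = 4.3e-12) and OT-1 was lower than TG6 by 1.29 ± 0.14 (log2 difference -1.29, adjusted p = 4.5e-07). The F5 libraries stayed between 4529 and 7856 at all 3 stages, while the other 17 libraries lay between 17664 and 58214.

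Trac also took a different course through the stages in OT-1. It rose from 20020 ± 2483 (SD, n = 3) at the early stage to 36650 ± 740.5 at the late stage, a log2 change of 0.88 ± 0.14 (adjusted p = 7.8e-05), and was 38050 ± 3244 in mature cells. The OT-1 early and late libraries did not overlap, and late and mature ones did. In TG6 the early and mature means were 49020 ± 6685 and 38270 ± 3395 (log2 change -0.35 ± 0.14, adjusted p = 0.055). This fall was called with equal totals (adjusted p = 0.024), quantile normalization (0.043), genes of a mean of at least 50 (0.047) and the replicate number as a block (0.0093). It was also called without TG6 mature replicate 1 (0.049) or TG6 early replicate 1 (0.021). It was not called in the other settings or without any other library (0.16 without TG6 mature replicate 3). In F5 the means were 7250 ± 594.4 and 5291 ± 685.0 (-0.46 ± 0.14, adjusted p = 0.022). The F5 call was lost without F5 mature replicate 1 (adjusted p = 0.13), F5 early replicate 2 (0.058) or F5 early replicate 3 (0.098). The early to mature change was larger in OT-1 than in TG6 by 1.28 ± 0.20 (adjusted p = 0.00031) and than in F5 by 1.39 ± 0.20 (adjusted p = 0.00055). By the mature stage OT-1 and TG6 overlapped, with a difference of -0.01 (95% interval -0.30 to 0.28), having differed by -0.53 ± 0.16 at the late stage (adjusted p = 0.025). That late call was lost without OT-1 late replicate 1 (adjusted p = 0.067), OT-1 late replicate 3 (0.051) or TG6 late replicate 2 (0.28). The late to mature change of Trac in TG6 was -0.47 ± 0.16 (adjusted p = 0.035), a call lost without TG6 mature replicate 2 (0.054), TG6 mature replicate 3 (0.11) or TG6 late replicate 2 (0.32). In F5 the same change was -0.33 ± 0.14 (adjusted p = 0.098, and 0.019 with the replicate number as a block).

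Trbc2, the more abundant beta constant gene in TG6 and OT-1, was low throughout F5. At early positive selection it was 73819, 80577 and 86689 in TG6, 86032, 89726 and 87567 in OT-1, and 22157, 19939 and 22178 in F5. Every F5 library of any stage lay between 11749 and 22178 and every other library between 41969 and 89726. OT-1 exceeded F5 by 2.04 ± 0.09 at the early stage (4.10-fold, adjusted p = 7.1e-13), by 1.93 ± 0.09 at the late stage and by 1.97 ± 0.09 at the mature stage. Early OT-1 lay 0.13 ± 0.09 above early TG6 (adjusted p = 0.31), and quantile normalization turned it to -0.52 (adjusted p = 0.013).

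Trbc1 showed no such deficit in F5. Early libraries held 30107 to 35196 in TG6, 32751 to 37238 in F5 and 27567 to 29284 in OT-1. TG6 and F5 overlapped, and OT-1 lay below F5 by 0.28 ± 0.09 (log2 difference -0.28, adjusted p = 0.043), a call that was lost when any 1 of the 6 libraries was left out (adjusted p from 0.06 to 0.2 without F5 early replicates 1 to 3 and OT-1 early replicates 1 to 3). At the late stage F5 was above TG6 by 0.57 ± 0.10 (adjusted p = 0.00077) and OT-1 differed from F5 by -0.49 ± 0.09 (adjusted p = 0.00033). Mature F5 libraries held 20457, 21288 and 21627 and did not overlap with mature TG6 (13905, 12408 and 15396) or mature OT-1 (14177, 13522 and 14263). Mature F5 was above TG6 by 0.61 ± 0.09 (adjusted p = 6.2e-05).

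Taken as a share of both beta constant genes within a library, Trbc1 made up 60.21 to 69.22% in the 9 F5 libraries, 22.13 to 29.81% in the 8 TG6 libraries and 21.81 to 27.88% in the 9 OT-1 libraries. F5 thus lay apart from both other lines at each stage. The early means were 61.68 ± 1.3% in F5 (SD, n = 3), 28.76 ± 0.29% in TG6 and 24.46 ± 0.84% in OT-1. Each comparison of F5 with 3 libraries of another line gave p = 0.1 in the two-sided exact permutation test (0.15 after adjustment over 9 comparisons), the smallest p that 3 libraries against 3 allow, and F5 against the 2 late TG6 libraries gave 0.2, the smallest there. OT-1 was also apart from TG6 at the early stage by -4.30 percentage points (exact p = 0.1), but at the late stage (exact p = 0.4) and mature stage (exact p = 0.3) the groups overlapped. The mature overlap came from TG6 mature replicate 3 (22.13%), since the other TG6 libraries (23.38 and 22.82%) lay above those of OT-1 (22.32, 22.53 and 21.81%). The sum of Trbc1 and Trbc2 was 55929 ± 3370 in early F5, 112794 ± 8982 in early TG6 and 116184 ± 1553 in early OT-1.

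**Figure D2:**
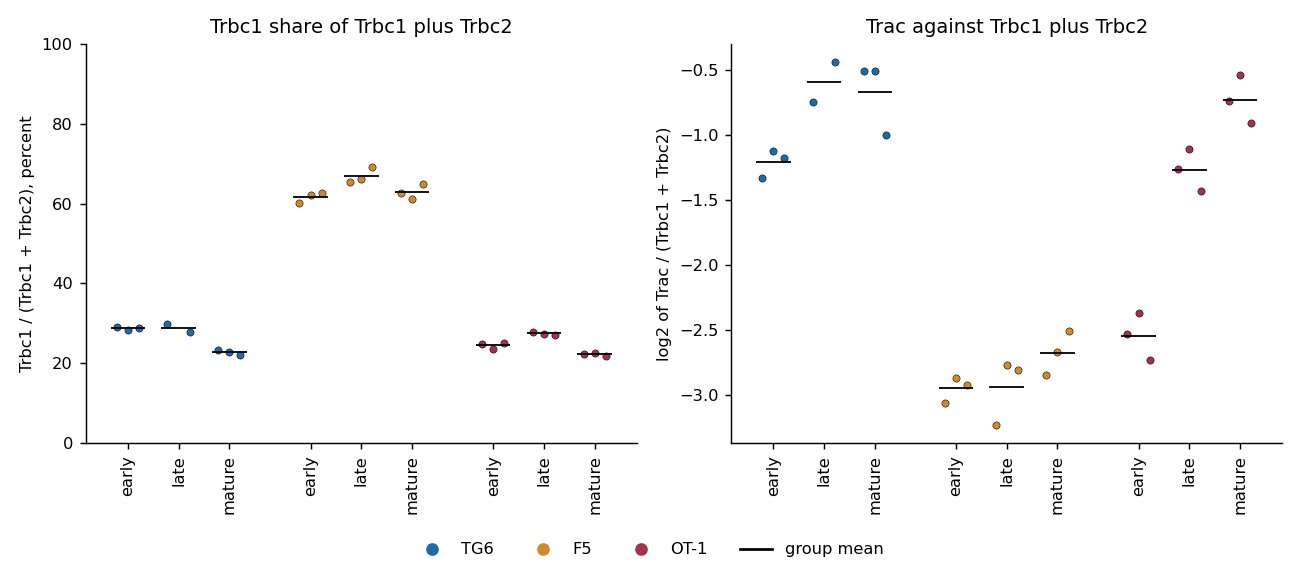
Left, Trbc1 as a percentage of Trbc1 plus Trbc2; right, log2 of Trac over Trbc1 plus Trbc2; by line (colour) and stage (horizontal axis), with points for libraries and bars for group means. F5 libraries hold 60.21 to 69.22% Trbc1 and the others 21.81 to 29.81%, and the mean alpha to beta ratio of OT-1 goes from -2.54 at the early stage to -0.73 in mature cells.

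Within a library, the log2 ratio of Trac to the summed beta constant genes was -2.54 ± 0.18 (SD, n = 3) in early OT-1, above early F5 at -2.95 ± 0.10 and below early TG6 at -1.21 ± 0.11, with no overlap. In mature cells it was -0.73 ± 0.19 in OT-1, -0.67 ± 0.28 in TG6 and -2.68 ± 0.17 in F5. F5 thus stayed low. Mature OT-1 (-0.74, -0.54 and -0.91) overlapped with mature TG6 only through TG6 mature replicate 3 (-1.0), the other TG6 libraries both being at -0.51. Among the variable genes, whose rows depend on which segments the reference holds, the most abundant beta segment was Trbv1 in TG6 (mean 21340), Trbv12-1 in OT-1 (22990) and Trbv16 in F5 (803.4), so the F5 segment was listed far below those of the other lines. All 80 joining and diversity segments were listed at 0 in every library.

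**Figure D3:**
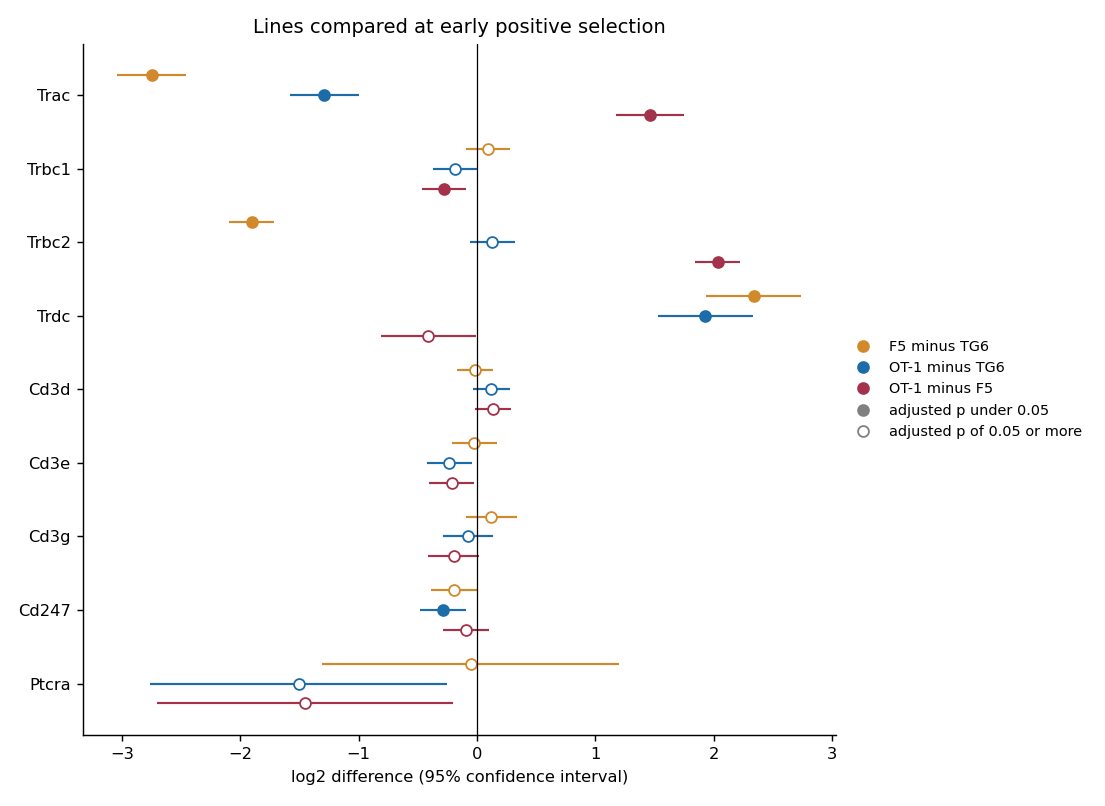
Log2 differences between lines at early positive selection (horizontal axis) for the 9 genes (vertical axis), with 95% confidence intervals; filled points have an adjusted p under 0.05. Trac passes in all 3 comparisons, Trbc2 in both that involve F5 and Trdc in both that involve TG6, while the 3 CD3 genes lie between -0.24 and 0.14.

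Trdc (chr14:54142851-54148868, plus strand), whose locus is removed when an alpha gene rearranges on the same chromosome, was low in TG6. TG6 libraries held 1544 to 3143, F5 libraries 6447 to 9991 and OT-1 libraries 5256 to 8800, so TG6 did not overlap with either at any stage. At the early stage F5 was above TG6 by 2.34 ± 0.19 (5.07-fold, adjusted p = 2.5e-08) and OT-1 by 1.93 ± 0.19 (3.81-fold, adjusted p = 1.6e-07). At the mature stage the differences were 1.84 ± 0.19 and 1.43 ± 0.19, and without TG6 mature replicate 3, which held 3143 against 1544 and 1603, they were 2.17 and 1.76. Per kilobase of transcript Trdc was below Trac, with 1828 against 21410 in early OT-1 and 2429 against 7754 in early F5. This rests on the length of the Trdc transcript (3865 bases against 935 for Trac). Without division by length, the log2 ratio of Trdc to Trac was -0.18 to 0.68 in the F5 libraries. In OT-1, Trdc fell from 8753 ± 40.4 in late to 5332 ± 76.0 in mature cells, a log2 change of -0.72 ± 0.19 (adjusted p = 0.0098). The same change in TG6 was -0.27 ± 0.22 (adjusted p = 0.41), and without TG6 mature replicate 3 it was -0.60 (adjusted p = 0.011). Trdc overlaps the antisense gene Gm43434 and the variable gene Trdv5 on the opposite strand, and since the sources used here do not say whether reads were counted by strand, part of its value could belong to them. Trdv5 itself held 15.2 to 94.7, and Gm43434 was not among the genes with deposited values.

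The gamma constant genes, which encode the partner of the delta chain, did not follow Trdc across the lines. Of 4 listed, 3 passed the filter, and all 3 were higher in early OT-1 than in early TG6 (27.8% of all genes called). Tcrg-C1 was 256, 102 and 275 in OT-1 against 11.9, 21.9 and 7.7 in TG6 (3.83 ± 0.61, adjusted p = 7.2e-05), and 6.8, 34.8 and 6.8 in F5, where Trdc was highest. Tcrg-C4 was higher by 3.51 ± 0.72 (adjusted p = 0.00095). A summed list of 8 gamma-delta T cell markers ran from 4790 to 9990 in OT-1 libraries. It ran from 214 to 439 in F5 and from 223 to 1510 in TG6. Il17a, Tcrg-V4 and Tcrg-V5 stayed under 10 in every library, and the sum is not broken down by marker here. The OT-1 animals were Rag2KO and the F5 animals Rag1KO, so each lacked a recombination gene. All cells were sorted as double-positive or as positive for CD8 alone. The part of gamma-delta T cells in the Trdc and gamma constant values was not tested. In bulk libraries fewer cells of a type and less RNA per cell cannot be told apart.

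Across stages, 4 to 6 of the 9 genes were called in each comparison, a larger share than among all genes. In TG6, 5 changed from early to late (25.4% of all genes), 4 from late to mature (22.3%) and 5 from early to mature (34.6%). In F5, 5 changed from early to late (26.7% of all genes; 3 higher and 2 lower, and 1 and 2 with quantile normalization), 4 from late to mature (20.5%) and 5 from early to mature (19.6%). In OT-1, 6 changed from early to late (26.7% of all genes), 5 from late to mature (24.4%) and 5 from early to mature (23.2%). In each line Cd3e and Cd3g rose and Trbc1 and Trbc2 fell between the early and mature stages, and Ptcra fell to the late stage and rose after it. The stage comparisons of a line share libraries and are not independent of each other.

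**Figure D4:**
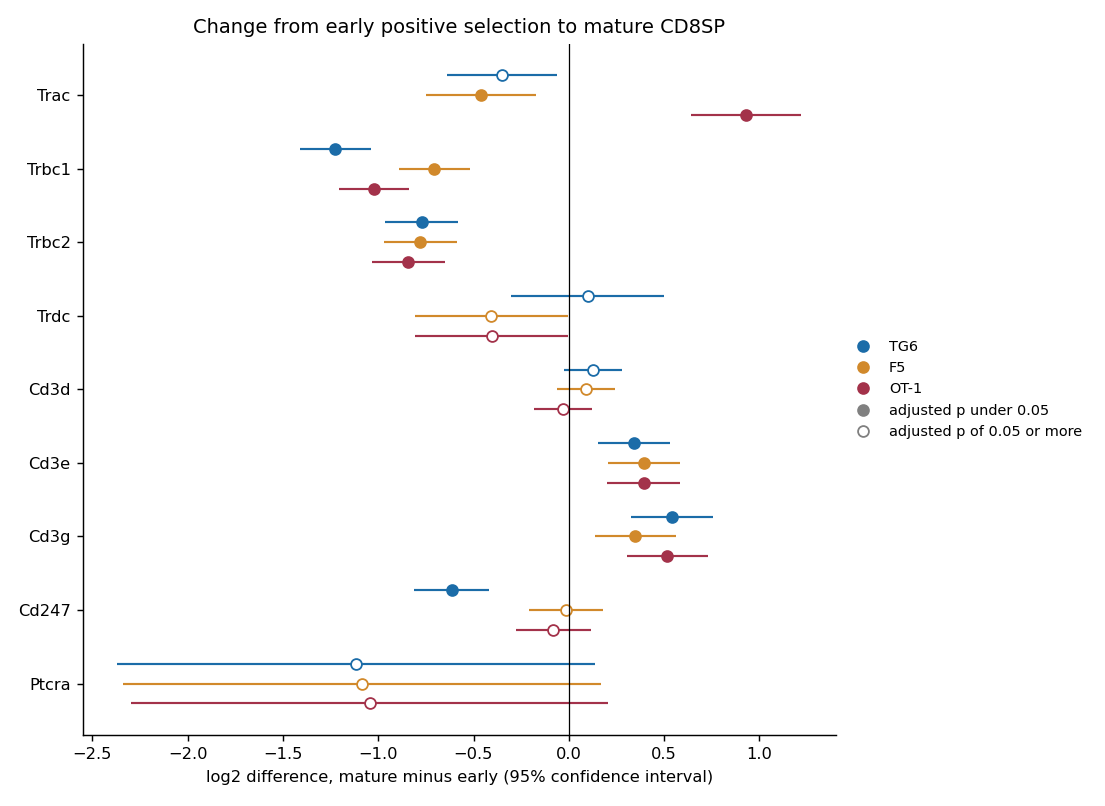
Log2 change from early positive selection to mature CD8SP (horizontal axis) for the 9 genes (vertical axis) in each line (colour), with 95% confidence intervals; filled points have an adjusted p under 0.05. Trbc1 and Trbc2 lie below 0 and Cd3e and Cd3g above 0 in all 3 lines, while Trac is above 0 in OT-1 alone.

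Both beta constant genes were lower in mature than in early cells of every line. The log2 change of Trbc1 was -1.22 ± 0.09 in TG6 (adjusted p = 3.4e-10), -0.71 ± 0.09 in F5 (adjusted p = 4.1e-06) and -1.02 ± 0.09 in OT-1 (adjusted p = 2.5e-08). The fall was smaller in F5 than in TG6 by 0.52 ± 0.13 (adjusted p = 0.019), a call lost without F5 early replicate 2 (adjusted p = 0.054), TG6 mature replicate 2 (0.05) or TG6 early replicate 3 (0.06). Trbc2 changed by -0.77, -0.78 and -0.84 in TG6, F5 and OT-1 (each with an SE of 0.09). From late to mature in TG6 the change of Trbc2 was -0.28 ± 0.10 (adjusted p = 0.058), and without TG6 mature replicate 3 it was -0.38 (adjusted p = 0.0076). Early and mature libraries did not overlap for either gene in any line.

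Of the CD3 genes, Cd3e and Cd3g rose from early to mature in every line. Cd3e (chr9:44998740-45009627, minus strand), the chain that pairs with both CD3 delta and CD3 gamma, went from 5962 ± 562.9 to 7595 ± 1094 in TG6 (SD, n = 3), from 5849 ± 126.7 to 7691 ± 177.3 in F5 and from 5052 ± 245.4 to 6647 ± 601.0 in OT-1. These were log2 changes of 0.34, 0.39 and 0.39 (SE 0.09; adjusted p = 0.0051, 0.0032 and 0.0028), and the rise was already present at the late stage (0.42, 0.46 and 0.54). In TG6 the late call was lost without TG6 late replicate 2 (adjusted p = 0.054). Cd3g (chr9:44969572-44980431, minus strand) rose from early to mature by 0.54 ± 0.10 in TG6, 0.35 ± 0.10 in F5 and 0.52 ± 0.10 in OT-1 (adjusted p = 0.00024, 0.019 and 0.00068). The F5 call was lost without F5 mature replicate 1 (adjusted p = 0.086), F5 mature replicate 2 (0.064), F5 early replicate 2 (0.057) or F5 early replicate 3 (0.11). Cd3d (chr9:44981786-44987339, plus strand), which begins 1355 bases from Cd3g and runs the other way, varied least of all, with a ratio of 1.4 between its highest and lowest libraries. Its early to mature change passed the test in no line (0.13, 0.09 and -0.03), and in OT-1 it rose by 0.25 ± 0.07 to the late stage (adjusted p = 0.014) and fell by 0.28 ± 0.07 after it (-0.28, adjusted p = 0.0075). The rise was not called without OT-1 late replicate 1 (adjusted p = 0.05) or OT-1 early replicate 3 (0.053). In F5 the early to late rise of Cd3d was 0.21 ± 0.07 (adjusted p = 0.035) and was lost without F5 late replicate 1 (0.12) or 2 (0.063) or any 1 of F5 early replicates 1 (0.053), 2 (0.053) and 3 (0.14). Early to late, Cd3g rose by 0.40 ± 0.12 in TG6 (adjusted p = 0.013; 0.07 without TG6 late replicate 1, 0.086 without TG6 late replicate 2 and 0.078 without TG6 early replicate 1) and by 0.56 ± 0.10 in OT-1 (adjusted p = 0.00032). Between lines limma called 0 of 27 tests of Cd3d, Cd3e and Cd3g (4 had an unadjusted p under 0.05), and the largest difference was -0.24 for Cd3e in early OT-1 against TG6 (95% interval -0.43 to -0.05, adjusted p = 0.059), which passed with libraries scaled to equal totals (adjusted p = 0.0065). That scaling called 4 of the 27 tests and quantile normalization 7, all of them lower in OT-1: by quantile normalization Cd3e passed at each stage against TG6 (-0.36, -0.31 and -0.28) and against F5 (-0.32, -0.24 and -0.37), and Cd3g against early F5 (-0.31). Without TG6 mature replicate 3, Cd3e was also lower in mature OT-1 than in mature TG6 (-0.30, adjusted p = 0.013), and the TG6 early to mature change of Cd3d passed (0.21, adjusted p = 0.018).

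Cd247 (chr1:165788681-165877277, plus strand), which encodes the zeta chain with the longest signalling tail of the complex, fell from early to mature in TG6. In TG6 it was 8123, 8671 and 8788 in early cells and 6008, 5779 and 4960 in mature cells, a fall of 0.62 ± 0.09 (log2 change -0.62, adjusted p = 1.9e-05) with no overlap, and its late to mature change was -0.52 ± 0.11 (adjusted p = 0.0011). The change was -0.01 ± 0.09 in F5 and -0.08 ± 0.09 in OT-1. It differed from TG6 by 0.60 ± 0.13 in F5 (adjusted p = 0.01) and by 0.53 ± 0.13 in OT-1 (adjusted p = 0.022). The OT-1 call was lost without OT-1 mature replicate 2 (adjusted p = 0.058), OT-1 early replicate 1 (0.064) or 2 (0.051), or TG6 early replicate 2 (0.054) or 3 (0.057). Mature TG6 was accordingly the lowest group for Cd247 (5582 ± 551.0), below mature F5 (7376 ± 503.6) by a log2 difference of 0.40 ± 0.09 (adjusted p = 0.0084; 0.055 without F5 mature replicate 1). In F5 it rose by 0.30 ± 0.09 from early to late (adjusted p = 0.022; 0.13 without F5 late replicate 1, 0.068 without F5 early replicate 2 and 0.12 without F5 early replicate 3). After that it fell by 0.31 ± 0.09 (-0.31, adjusted p = 0.021; 0.062 without F5 mature replicate 2, 0.087 without F5 mature replicate 3 and 0.12 without F5 late replicate 1). The early OT-1 against TG6 difference was -0.29 ± 0.09 (adjusted p = 0.027), lost without OT-1 early replicate 1 (0.09) or 2 (0.072) or TG6 early replicate 2 (0.079) or 3 (0.078), and the late OT-1 against F5 difference was -0.29 ± 0.09 (adjusted p = 0.028), lost without F5 late replicate 1 (0.14) or 2 (0.057) or OT-1 late replicate 1 (0.073) or 2 (0.13).

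Over all members, the 3 tests of a difference in the early to mature change between lines called 2 genes for OT-1 against TG6 (Trac and Cd247; 4.2% of all genes), 1 for OT-1 against F5 (Trac; 1.64%) and 2 for F5 against TG6 (Trbc1 and Cd247; 4.4%).

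Ptcra (chr17:46755663-46763712, minus strand), the invariant partner of the beta chain before alpha rearrangement, was the least abundant and most variable of the 9 genes. In TG6 it was 335, 483 and 452 at the early stage, 13.7 and 7.9 at the late stage, and 94.9, 94.5 and 787 in mature cells. F5 libraries held 360, 383 and 475, then 11.2, 47.2 and 21.4, then 120, 318 and 177. OT-1 libraries held 111, 153 and 185, then 4.1, 5.2 and 11.2, then 72.0, 52.2 and 92.9. The late stage was thus the lowest in each line, with no overlap with the stages before and after it. From early to late Ptcra fell, with log2 changes of -5.20 ± 0.67 in TG6 (adjusted p = 4.4e-06), -4.09 ± 0.60 in F5 (adjusted p = 2.4e-05) and -4.34 ± 0.60 in OT-1 (adjusted p = 2.0e-05). From late to mature it rose by 4.08 ± 0.67, 3.01 ± 0.60 and 3.29 ± 0.60 (adjusted p = 0.00015, 0.00091 and 0.00044). Without TG6 mature replicate 3 the TG6 rise was 3.07 (adjusted p = 0.00024), and the early to mature change, -1.12 ± 0.60 with it (adjusted p = 0.17), was -2.13 (adjusted p = 0.0011).

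OT-1 had the lowest mean Ptcra at each stage, although few of these differences passed the test. At the early stage OT-1 did not overlap with TG6 or F5, with log2 differences of -1.51 ± 0.60 (adjusted p = 0.067) and -1.45 ± 0.60 (adjusted p = 0.12). A fit of the compared groups alone called both (adjusted p = 0.0033 and 0.0099). Equal totals called the difference from TG6 (-1.62, adjusted p = 0.049), and no other setting called either. The late difference from F5 was -1.69 ± 0.60 (adjusted p = 0.045), a call lost without F5 late replicate 2 (0.22), F5 late replicate 3 (0.094), OT-1 late replicate 1 (0.16) or OT-1 late replicate 2 (0.12), and in 4 of 9 other settings (a pseudocount of 5, no filter on low values, no trend in the prior variance, and a fit of late OT-1 and late F5 alone). As a log2 ratio to Trac within a library, Ptcra was -4.16 ± 0.10 in early F5 (SD, n = 3), -6.86 ± 0.11 in early TG6 and -7.08 ± 0.46 in early OT-1. F5 was apart from both lines at each stage (exact permutation p = 0.1, adjusted 0.18; 0.2, adjusted 0.3, against late TG6, in each case the smallest possible), and OT-1 overlapped with TG6 (exact p = 0.5, 1.0 and 0.3). These separations depended on the denominator. With the summed beta constant genes in place of Trac, the F5 minus TG6 difference at the early stage was 0.96 in place of 2.70, and mature F5 (-8.07, -6.77 and -7.55) overlapped with mature TG6 (-9.28, -9.15 and, in replicate 3, -6.46). Early OT-1 (-10.0, -9.58 and -9.29) was then apart from early TG6 (-8.28, -7.86 and -8.07), by -1.55 in place of -0.22, and mature OT-1 (-9.77, -10.14 and -9.44) was also below all mature TG6 libraries. F5 stayed above OT-1 at each stage with either denominator.

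The recombination genes Rag1, Rag2 and Dntt, which are active while alpha genes rearrange, all fell from early to late in every line, as Ptcra did. From late to mature, where Ptcra rose, Rag1 was called higher in each line and Rag2 in F5, but the TG6 call of Rag1 (2.90, adjusted p = 0.038) was lost without TG6 mature replicate 3 (1.90, adjusted p = 0.20). Dntt passed the test in no line (log2 changes of 0.10, 0.49 and 1.02 in TG6, F5 and OT-1). In each of the 9 groups the library with the most Ptcra was also the one with the most Rag1. Of the 16371 genes tested other than Ptcra, this held for 8 (0.0489%), Rag1 being 1 of them. It held for Rag2 and Dntt in 8 groups each and for the proliferation gene Mki67 in 7. These genes were picked for this count after their values had been seen. TG6 mature replicate 3 had 787 for Ptcra with 5265 for Rag1 and 7845 for Dntt, and F5 late replicate 2 had 47.2 for Ptcra with 1658 for Rag1 against 62.3 and 109 in its group. Mki67 was 109 to 3139 at the late stage and 6220 to 30471 in mature cells. Summed markers of double-negative thymocytes, the stage at which Ptcra is best known, ran from 6710 to 7390 in mature TG6 and from 3010 to 3800 in early TG6. Dtx1 made up most of this (5205 to 6502 in mature and 1639 to 2062 in early TG6), whereas Il2ra, which encodes CD25, was 101 to 230 in mature and 747 to 1254 in early TG6. Hes1 was lower in 2 of the 3 mature TG6 libraries than in any early one, and Igll1 stayed under 10 in every library. From late to mature, where Ptcra rose, the sum rose without overlap in each line (3320 to 3590 against 6710 to 7390 in TG6). Hes1 also rose without overlap, with 14.4 to 18.1 late and 95.7 to 1848 mature in TG6. It held 3.5 to 31.3 and 32.9 to 106 in F5, and 272 to 370 and 430 to 860 in OT-1. Il2ra overlapped in each line. All cells were sorted as double-positive or positive for CD8 alone, and the part of double-negative cells in the Ptcra values was not tested.

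**Figure D5:**
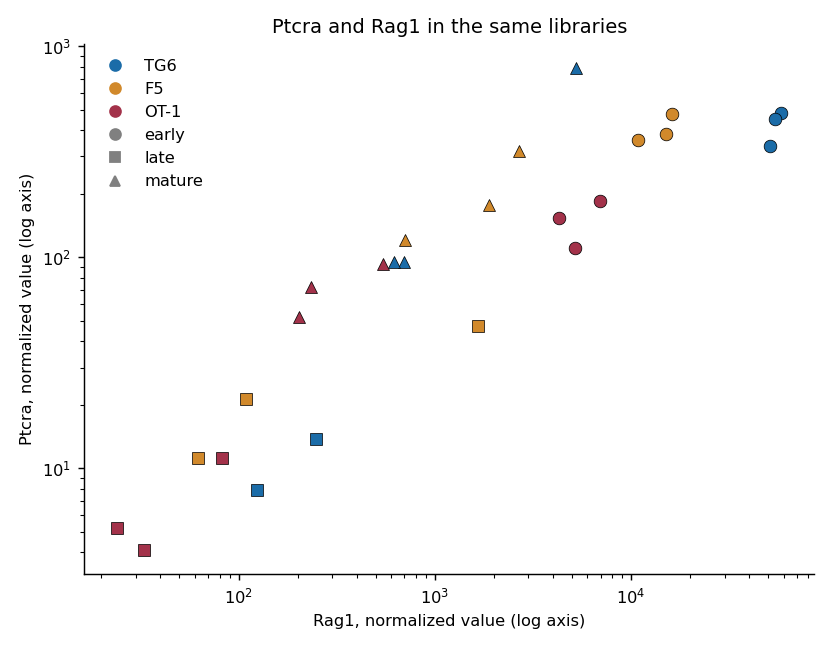
Ptcra (vertical log axis) against Rag1 (horizontal log axis), both as normalized values, for each of the 26 libraries; colour is the line and shape the stage. Within each line early libraries are highest for Rag1 and late libraries lowest for Ptcra, and TG6 mature replicate 3, at 5265 and 787, is the highest library for Ptcra.

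The 250 bases before the Ptcra start (chr17:46763713-46763962, minus strand, GRCm38.p6, from RefSeq) are shown because E proteins, which bind E boxes, are known regulators of this gene. Those before Cd3g (chr9:44980432-44980681, minus strand) and Cd3e (chr9:45009612-45009861, minus strand) follow because these genes rose together. E boxes (CANNTG, which reads alike on both strands) are in capitals.
Ptcra: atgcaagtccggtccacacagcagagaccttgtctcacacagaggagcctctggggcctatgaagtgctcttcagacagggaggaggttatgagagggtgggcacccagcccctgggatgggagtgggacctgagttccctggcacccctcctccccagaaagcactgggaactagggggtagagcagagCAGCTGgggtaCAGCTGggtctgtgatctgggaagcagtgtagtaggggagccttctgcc
Cd3g: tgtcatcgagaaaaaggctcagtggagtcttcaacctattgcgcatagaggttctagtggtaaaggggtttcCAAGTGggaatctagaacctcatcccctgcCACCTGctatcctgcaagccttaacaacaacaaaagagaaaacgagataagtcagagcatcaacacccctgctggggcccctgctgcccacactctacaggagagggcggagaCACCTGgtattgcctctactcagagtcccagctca
Cd3e: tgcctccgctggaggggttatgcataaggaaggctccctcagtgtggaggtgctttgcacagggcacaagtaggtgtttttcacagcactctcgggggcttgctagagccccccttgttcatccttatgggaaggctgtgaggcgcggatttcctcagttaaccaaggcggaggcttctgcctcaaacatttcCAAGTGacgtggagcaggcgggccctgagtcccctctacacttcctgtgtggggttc

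Ptcra held 2 E boxes, Cd3g 3 and Cd3e 1, and 66.2% of 32851 promoters held at least 1. The ETS core GGAA was found on either strand 3 times in Ptcra, 2 times in Cd3g and 5 times in Cd3e, and in 93.4% of all promoters. The Runx letters TGTGGT (14.0% of promoters) were in none of the 5 member promoters in the table, and the GATA letters AGATAA or AGATAG (16.5%) only in that of Cd3g. Cd3d held 1 E box and 6 ETS cores, and Cd247 2 E boxes and 1 ETS core. The table holds no promoter entry for Trac, Trbc1, Trbc2 or Trdc. A match is a run of letters and was not tested for binding.

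Other genes of the pathway were read from lists. Among receptor recombination genes, 3 of 3 were lower in early OT-1 than in early TG6 (27.8% of all genes called) and 3 of 3 fell from early to mature in each line (34.6, 19.6 and 23.2% of all genes called in TG6, F5 and OT-1). Rag2 is the gene knocked out in OT-1 and Rag1 the gene knocked out in F5, so the difference of each from TG6 in that line cannot be told apart from the knockout. Rag2 and Rag1 differed by -3.44 ± 1.00 and -3.34 ± 0.88 between early OT-1 and TG6 (adjusted p = 0.013 and 0.007), and from early to mature Rag1 changed by -5.37 ± 0.88 in TG6 and -4.18 ± 0.88 in OT-1. Rag2 changed by -5.27 ± 1.00 and -3.71 ± 1.00. Without TG6 mature replicate 3 the TG6 changes were -6.37 for Rag1 and -6.22 for Rag2. Of 3 gamma constant genes tested, 3 rose from early to mature in TG6 (34.6% of all genes called; Tcrg-C4 by 3.63 ± 0.72, Tcrg-C1 by 3.33 ± 0.61, or 2.64 without TG6 mature replicate 3). In F5 and in OT-1, limma called 0 of 3 over the same interval (1 in F5 and 0 in OT-1 had an unadjusted p under 0.05), with Tcrg-C1 at 1.30 ± 0.61 (adjusted p = 0.15) and 0.50 ± 0.61 (adjusted p = 0.63). The difference of this change from that in TG6 was itself called for 0 of 3 genes in OT-1 and 0 of 3 in F5 (3 of 3 had an unadjusted p under 0.05 in each), so the lines are not shown to differ.

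Of 22 transcription factors known to act at these loci, 6 were higher and 3 lower in early OT-1 than in early TG6, where 27.8% of all genes were called. Id2, an inhibitor of E proteins, differed by 1.77 ± 0.51 (adjusted p = 0.013) and Runx3, a factor of the CD8 lineage, by 1.21 ± 0.31 (adjusted p = 0.0059). Ets2 and Myb, a factor of immature thymocytes, differed by -0.92 ± 0.19 and -0.89 ± 0.25. From early to mature, 4 rose and 13 fell in TG6 (34.6% of all genes called) and 2 rose and 13 fell in OT-1 (23.2%). Id2 and Runx3 rose by 3.35 ± 0.51 and 2.92 ± 0.31 in TG6 and by 1.58 ± 0.51 and 1.24 ± 0.31 in OT-1. Ets2 changed by -2.67 ± 0.19 in TG6 and Notch3, a receptor of early thymocytes, by -2.25 ± 0.23 in OT-1. F5 had 3 that rose and 9 that fell (19.6% of all genes called).

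Among 14 TCR signal kinases and adaptors tested, 3 were higher and 3 lower in early OT-1 than in TG6 (27.8% of all genes called). Fyn, a Src-family kinase, and Csk, which restrains that family, were higher by 0.74 ± 0.16 and 0.72 ± 0.07, and Lck, the kinase that phosphorylates the CD3 chains, and Txk were lower (log2 differences -0.48 ± 0.07 and -0.49 ± 0.17). From early to mature, 5 rose and 4 fell in TG6 (34.6% of all genes called) and 1 rose and 5 fell in OT-1 (23.2%). Syk, a kinase that the pre-TCR can use, changed by -3.51 ± 0.48 in TG6 (-4.34 without TG6 mature replicate 3) and -1.88 ± 0.48 in OT-1, and the adaptor Nck2 by -1.89 ± 0.21 and -1.17 ± 0.21. The phosphatase gene Ptprc (CD45) rose by 0.65 ± 0.12 and 0.59 ± 0.12, and Fyn by 0.96 ± 0.16 in TG6.

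Of 11 receptor turnover and trafficking genes tested, 4 were higher and 1 lower in early OT-1 than in TG6 (27.8% of all genes called), among them Fcer1g, a signalling chain related to zeta (1.96 ± 0.66, adjusted p = 0.03), Unc119 (1.29 ± 0.17) and the ubiquitin ligase gene Cbl (-0.71 ± 0.14). From early to mature 1 rose and 4 fell in TG6 (34.6% of all genes called) and 1 rose and 3 fell in OT-1 (23.2%). Cblb, a related ligase gene, rose by 1.01 ± 0.10 and 0.71 ± 0.10, and Sla and Trat1, an adaptor that binds the zeta chain, changed by -2.09 ± 0.17 and -1.60 ± 0.15 in TG6 and by -1.26 ± 0.17 and -0.92 ± 0.15 in OT-1. Of 9 coreceptor and stage surface genes, 3 were higher and 4 lower in early OT-1 than in TG6 (27.8% of all genes called), with Ccr7 at 2.43 ± 0.35, Cd69 at 1.27 ± 0.32, Cd4 at -1.46 ± 0.50 and Cxcr4 at -1.41 ± 0.43. CXCR4, CCR7, CD4 and CD8 were used in the sort, so their change across stages is not a finding.

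The genes whose pattern was most like that of each variable member were taken as the 3 with the highest Pearson r over the 9 group means, among 9762 genes whose means span more than 1 on the log2 scale. With so few points such values are descriptions only. For Ptcra they included Arsi (r = 0.975) and Rfx2 (0.972), each with its lowest mean at the late stage of every line, and for Trbc1 they were Myo18a (0.990), Ick (0.988) and Zcchc24 (0.983). Trbc2 was followed by Cxadr (0.966), Xkr6 (0.928) and Greb1 (0.917), and Trdc by RP23-6A14.10 (0.988), Gm37324 (0.987) and Gm3052 (0.982). For Trac they were Gm4540 (0.931), Oas1a (0.924) and Gbp6.1 (0.923). The group means of the CD3 genes and Cd247 spanned at most 0.718 and were not matched.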

How the data were processed

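The data are mRNA sequencing of sorted mouse thymocytes. Per the labels and the study's methods, the authors used Trimmomatic 0.32 for trimming, Bowtie2 2.3.2 for alignment to mm10, RSEM 1.2.31 for gene-level estimates and DESeq2 for normalization. The deposited values are therefore a normalized signal, not whole counts, and their error at low levels cannot be read from depth; the labels state a depth of 20000000 reads, and the annotation, the strand setting and each library's own read number are not given in the sources used here. Because no counts were used here, limma 3.58.1 (R 4.3.3) was run on log2(value + 1) with 1 mean per group, a trend in the prior variance and 17 residual degrees of freedom, for genes of at least 10 in at least 2 libraries. Adjusted p-values are Benjamini-Hochberg over 16372 genes and intervals are 95%. Ratios within a library were compared by two-sided exact permutation (SciPy). On simulated data for OT-1 against TG6 at early positive selection (16372 genes), 55 of 100 log2 changes of 1 and 77 of 100 of 2 were recovered, with 5 of 16172 unchanged genes called. The members and gene lists were chosen with earlier results of these data known. The text names all 9 members, for each member that spans more than 1 the 3 genes most like it, and at most 2 called genes per list and direction in 3 comparisons. A few genes that this rule or a marker list names are not reported here. Gene positions are from GENCODE (GRCm38, the build that mm10 names) and promoters from RefSeq. Libraries of a line with the same replicate number deviated together in F5 (9 of 9 pairs with r over 0.1, from 0.106 to 0.34). In TG6 2 of 7 pairs passed 0.1 (0.023 to 0.274, median 0.0507) and in OT-1 5 of 9 (0.0189 to 0.178, median 0.111). Pairs with unlike numbers had lower medians (-0.102 in F5, -0.0298 in TG6 and -0.0531 in OT-1), so weaker pairing in TG6 and OT-1 is not excluded. The main fit held no block, and results with the replicate number as a block are given beside some results and in the last section. The labels do not say that a number marks 1 animal.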

Additional observations from a re-analysis of the deposited data

Results flagged for a closer look

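Of the 9 genes, 5 results differed between lines in the early to mature change, each by limma's test of the difference itself. For Trac the change was larger in OT-1 than in TG6 by 1.28 on the log2 scale and than in F5 by 1.39, and all 3 mature OT-1 libraries (34864 to 41350) lay above the early ones (17664 to 22614). Cd247 fell more from early to mature in TG6 than in OT-1, by 0.53, and than in F5, by 0.60. Trbc1 also fell more in TG6 than in F5, by 0.52. Groups of 2 or 3 libraries were too small to test single libraries as outliers.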

How the results depend on the processing

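Of 189 comparisons of a member, 78 were called, and 51 of these calls were kept in every setting and with any 1 library left out. Under each library scaled to the same total, the number of members called was 6 for OT-1 against TG6 early, 5 for OT-1 against F5 early and 6 for OT-1 against F5 mature; this scaling moved the median of all genes to -0.109, -0.129 and -0.098 for OT-1 against TG6 from early to mature, to -0.127 for OT-1 against F5 mature, and to -0.110 and -0.116 for TG6 late to mature and early to mature. Quantile normalization gave 6, 5 and 6 for the same comparisons, 2 for OT-1 against TG6 mature and 3 for F5 early to late, and reversed Trbc2 in early OT-1 against TG6 (-0.52). When the fit held no other groups than those compared, members called were 0 for OT-1 against TG6 mature, 3 for OT-1 against F5 late, 2 and 3 for F5 against TG6 late and mature, 0 for TG6 late to mature, 3 for F5 early to late and 0 for F5 against TG6 in the early to mature change; fewer libraries then estimated the spread, and at an unadjusted p under 0.05 limma gave 1, 4 and 2 members in the comparisons with 0. With no filter, OT-1 against F5 late gave 3.

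Leaving out 1 library gave 1 to 2 members for OT-1 against TG6 late, 1 to 2 for OT-1 against TG6 mature, 3 to 5 for OT-1 against F5 late, 3 to 5 for F5 early to late, 3 to 5 for F5 early to mature, 1 to 2 for OT-1 against TG6 and 1 to 2 for F5 against TG6 in the early to mature change. A lone library of TG6 late was then assumed to vary like the other groups. The replicate block by number gave 2 members for OT-1 against F5 in the early to mature change (Trbc1 added) and, within F5, changed no call but that of Trac from late to mature. In TG6 it added Trac from early to mature and Trbc2 from late to mature, and in OT-1 Trbc1 from early to late. The numbers paired less clearly in these lines than in F5. With Trbc1 plus Trbc2 as the denominator in place of Trac, the log2 Ptcra ratio differed by -1.55 between OT-1 and TG6 early, by -2.51, -2.49 and -2.32 between OT-1 and F5 from early to mature, and by 0.96, 1.70 and 0.83 between F5 and TG6. The cause of these shifts was not tested.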
